A study of Mus musculus with 7 samples.

Results

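Semaphorins are guidance proteins that share an extracellular sema domain, and plexins are the receptors through which most of them signal. Of the 18193 mouse genes represented on the arrays, 31 belonged to these families: 20 semaphorins of classes 3 to 7, 9 plexins and the neuropilins Nrp1 and Nrp2. They were chosen by gene symbol alone, from the probe sets annotated with 1 symbol. A gene with several probe sets is given by the one whose log2 signal averaged highest over the 7 arrays, and low signal left none out of the account. In all, 78 probe sets stood for the 31 genes, and 25 genes had more than 1.

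Class 3 semaphorins are secreted and mostly act through a neuropilin paired with a type A plexin. Classes 4 to 6 are membrane-spanning and bind plexins directly, and Sema7a is anchored to the membrane by a lipid and binds Plxnc1 and the integrin subunit Itgb1. Plexins carry an intracellular GTPase-activating domain for small GTPases of the R-Ras and Rap type, and neuropilins also bind vascular endothelial growth factors. In the immune system semaphorins of classes 4 and 7 take part in contacts between lymphocytes and myeloid cells, and class 3 members act on vessels and migrating cells.

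The samples were macrophages sorted by GFP and F4/80 after papain digestion, from C57/Bl6 mice. The normal brain group had 3 arrays from mice 8 weeks old. The GL261 group (spelled Gl261 in the labels) had 4 arrays from tumours of this mouse glioma line, taken 21 days after intracranial injection into mice with transplanted GFP bone marrow. Whether mice of the normal brain group also carried such marrow is not clear from the labels, so it is not known whether GFP marked the same cells in both groups. The labels also do not say whether arrays came from separate animals or pools, so p-values measure only the spread between these arrays.

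Each array gave a linear MAS5 intensity per probe set, scaled by the authors so that the mean without the lowest and highest 2% was the same on every array. Values are given below as log2(signal + 6), by array in the order of replicates. Background, taken as the 95th percentile of 27 Bacillus control probe sets on each array, lay between 4.19 and 4.70 on this scale. The 8 pan-macrophage markers, among them Adgre1 (which encodes F4/80), Itgam and Csf1r, were above background on all 7 arrays, and 1 of them was called higher and 0 lower in GL261 by limma (1 and 2 at an unadjusted p under 0.05). The 3' to 5' ratio of Gapdh, a sign of RNA integrity, was 2.39 to 2.43 in normal brain and 1.64 to 1.89 in GL261. That of actin overlapped, at 1.43 to 1.64 and 1.36 to 1.52. The part of RNA integrity in the results was not tested. Across the tested genes, GL261 replicate 2 and normal brain replicate 1 had the highest correlation between groups (0.922, others from 0.875). Within groups the correlations were 0.896 to 0.927 in normal brain and 0.942 to 0.954 in GL261.

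Of the 31 members, 16 were above background on all 7 arrays, and 23 passed the filter on low signal and were tested. By limma with an adjusted p under 0.05, 2 rose in GL261 (Sema4b and Nrp2) and 5 fell (Sema3c, Sema3g, Sema4c, Sema7a and Nrp1), while 0 of 8 tested plexins were called (1 at an unadjusted p under 0.05). Over all 12125 tested genes 10.1% were called, 5.92% higher and 4.20% lower. The median log2 fold change was -0.24 over the 23 members and 0.04 over all genes tested. For 9 of the 23 no array of one group fell within the range of the other, higher for 3 and lower for 6, against 23.4% of all tested genes (13.1% higher and 10.4% lower). In GL261 Sema3c, Sema3g and Sema5b averaged 4.04, 3.74 and 4.89, under the filter of 4.93. They were tested only through normal brain, so a lower mean was fixed for them in the counts and median above. With no filter 31 members were tested, 2 called higher and 5 lower. Without normal brain replicate 2 the count of called members was 4, since Nrp2 and Sema7a lost their calls and Sema3g fell under the signal filter. With the filter at the 60th percentile, where 13 members were tested, 2 were called higher and 3 lower, since Sema3c and Sema3g were no longer tested.

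**Figure D1:**
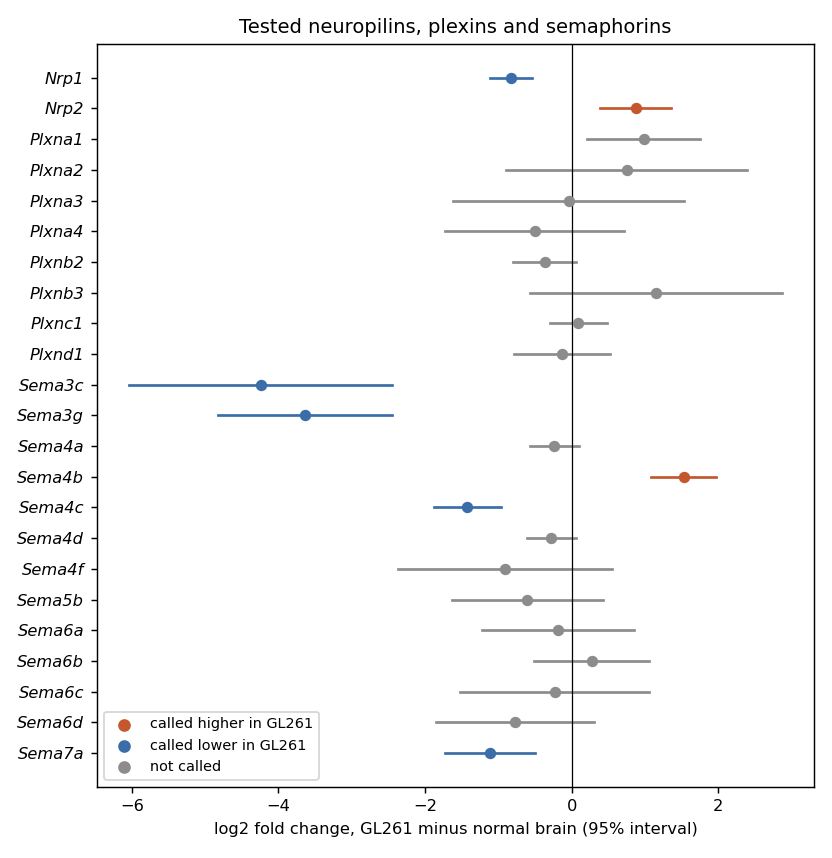
Log2 fold change of GL261 over normal brain for the 23 tested members, with 95% confidence intervals from limma (3 arrays against 4). Sema3c and Sema3g lie farthest to the left, at -4.24 and -3.64, set by GL261 values under background on 3 of 4 arrays, and Sema4b farthest to the right at 1.53, and the intervals of 7 of the 8 plexins cross 0.

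Regulatory sequence is shown for 4 called members with 1 start site each in the RefSeq table. They are the neuropilins, called in opposite directions by the probe sets used, and Sema3c and Sema3g, under background on 3 of 4 GL261 arrays. Each line holds the 250 bases before the annotated start on the plus strand of GRCm38.p6, 5′ to 3′, at chr8:128358823-128359072 for Nrp1, chr1:62703067-62703316 for Nrp2, chr5:17574566-17574815 for Sema3c and chr14:31217623-31217872 for Sema3g. Capitals mark matches on either strand to GGGCGG (the GC box bound by Sp1-type factors) and ACGTG (the hypoxia response core). 
Nrp1: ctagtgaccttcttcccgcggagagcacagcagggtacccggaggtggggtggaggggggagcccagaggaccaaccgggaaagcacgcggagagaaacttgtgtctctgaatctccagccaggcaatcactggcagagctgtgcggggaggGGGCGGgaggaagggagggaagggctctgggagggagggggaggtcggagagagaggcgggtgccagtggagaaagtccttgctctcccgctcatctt
Nrp2: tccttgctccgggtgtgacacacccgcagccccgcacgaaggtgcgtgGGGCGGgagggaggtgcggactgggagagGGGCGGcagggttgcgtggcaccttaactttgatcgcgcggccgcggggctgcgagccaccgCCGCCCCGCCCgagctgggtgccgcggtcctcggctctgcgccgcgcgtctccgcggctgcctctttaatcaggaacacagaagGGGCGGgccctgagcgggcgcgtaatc
Sema3c: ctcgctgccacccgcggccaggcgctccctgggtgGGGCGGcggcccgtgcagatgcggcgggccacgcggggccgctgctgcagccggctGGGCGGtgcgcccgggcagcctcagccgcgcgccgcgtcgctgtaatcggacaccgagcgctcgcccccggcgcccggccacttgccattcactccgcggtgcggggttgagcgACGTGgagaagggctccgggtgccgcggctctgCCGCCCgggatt
Sema3g: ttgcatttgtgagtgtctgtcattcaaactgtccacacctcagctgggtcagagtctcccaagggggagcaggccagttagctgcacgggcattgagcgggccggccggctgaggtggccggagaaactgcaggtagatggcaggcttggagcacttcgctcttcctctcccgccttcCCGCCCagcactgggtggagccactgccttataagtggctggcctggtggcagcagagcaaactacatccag
The GC box was found once in Nrp1 and Sema3g, at 3 places in Sema3c and at 5 in Nrp2, and the hypoxia core once, in Sema3c. The windows held 11, 32, 39 and 8 CpG dinucleotides in the order printed, against a median of 6 over all promoters.

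The RefSeq table held 37 such windows for 26 of the 31 members, and 9 for the 7 called ones. GGGCGG was in all 9 windows of called members and in 27 of the 37, against 32.7% of 32841 promoters. ACGTG was in 3 of the 9 and 7 of the 37, against 16.6% of promoters, and lay in both Sema4b windows. TGANTCA, the AP-1 site, was in 1 of the 9 (a Sema4c window) and 3 of the 37, against 6.75%. CACGTG, the E-box, which contains ACGTG, was in 1 of the 9 (a Sema4b window) and 2 of the 37, against 6.02%. TATAAA and the PU.1 site GAGGAAGT were in 0 of the 37, against 12.4% and 2.44% of promoters. These are letter matches on both strands and not measured binding sites.

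Class 3 ligands: Sema3c and Sema3g were lower in GL261. They were the only class 3 members that passed the signal filter, and did so through their normal brain values, so their shared direction is no result about the class. Both were also called lower when no filter was used. Sema3c is a secreted semaphorin needed for development of the cardiac outflow tract. Its log2 values were 8.46, 8.22 and 8.17 on the normal brain arrays and 2.83, 6.54, 4.07 and 2.72 on the GL261 arrays. The normal brain arrays lay close together and all GL261 arrays lay below them, with replicate 2 the only GL261 array above background. The fitted log2 difference was -4.24 (SE 0.82, adjusted p = 0.00913), and -5.08 without GL261 replicate 2. Values under background have no exact size. With each raised to the background of its array, Sema3c fell by 3.35 (SE 0.59, adjusted p = 0.00431), at least 10.2-fold by the group means. Its other probe set, under the signal filter, had a difference of -1.05.

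Sema3g, a vascular class 3 semaphorin, stood at 6.69, 7.44 and 8.01 on the normal brain arrays. The GL261 arrays gave 3.88, 4.47, 3.21 and 3.40. No GL261 array reached the lowest normal brain value, and again replicate 2 was the only GL261 array above background. The fitted difference was -3.64 (SE 0.55, adjusted p = 0.00250), with 1 probe set for the gene. With values under background raised to it, Sema3g fell by 2.96 (SE 0.48, adjusted p = 0.00255), at least 7.80-fold. These bounds come from group means, leave out the SE and were added after the data were seen. Raising values to a floor also narrows their spread, so the SE and p of these fits are no separate support. Without normal brain replicate 2 or 3 its mean was under the signal filter and it was not tested. With a pseudocount at the median signal (58) the differences were -2.24 for Sema3c and -1.75 for Sema3g, and with a pseudocount of 1 they were -5.32 and -4.35, so their size depends on how low signals are treated.

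Several vessel markers were lower in GL261, as these ligands were. Of 11 tested endothelial genes 5 were called lower and 0 higher (8 lower and 1 higher at an unadjusted p under 0.05). The tight-junction gene Cldn5 fell by 3.69 (adjusted p = 0.0202), the adhesion gene Pecam1 had a difference of 1.23 and was not called (adjusted p = 0.127), and the cadherin Cdh5 was under the signal filter. The summed signal of the 12 endothelial genes on the arrays was 4414 to 4968 in normal brain, 861 to 980 in GL261 replicates 1, 3 and 4, and 2557 in GL261 replicate 2, the array with the highest GL261 signal of Sema3c (87.2, others 0.578 to 10.8) and of Sema3g (16.2, others 3.26 to 8.68). None of the 12 was at background on all arrays of either group. The pattern was not particular to vessel genes, since other sums were also lower in GL261 and highest there in replicate 2. Erythroid genes summed to 4439 in replicate 2 and 9406 to 16064 in normal brain, and B cell genes to 1304 and 4003 to 5134. Choroid plexus and pituitary genes summed to 188 and 4798 to 5727. The part of endothelial RNA in the decreases was not tested. In sorted bulk samples such as these, fewer cells of a type and less RNA per cell cannot be told apart.

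**Figure D2:**
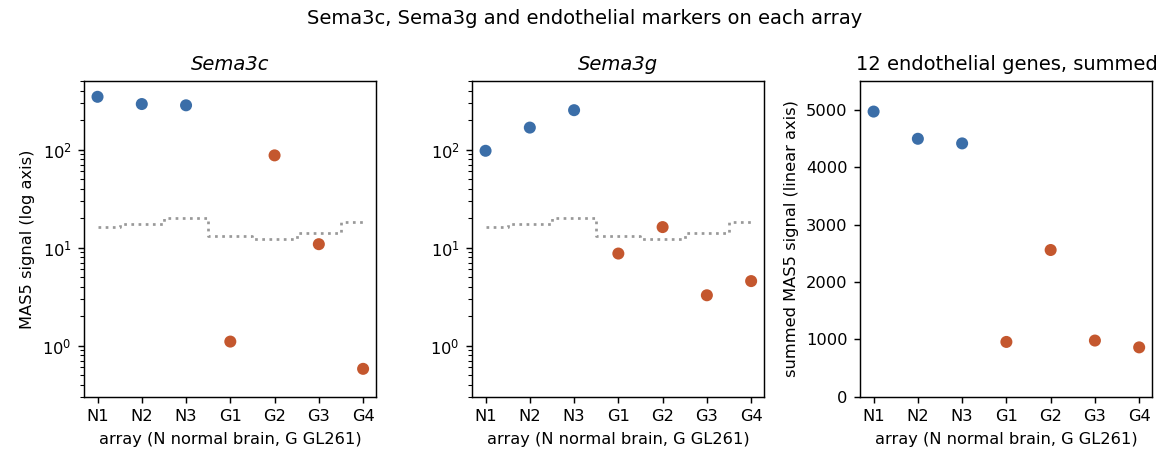
MAS5 signal of Sema3c and Sema3g and the summed signal of 12 endothelial genes on each array (log axes for the genes and a linear axis for the sum, N1 to N3 normal brain, G1 to G4 GL261), with the background of each array as a dotted line in the first panels. In all 3 panels G2 is the highest GL261 array, at 87.2, 16.2 and 2557, and lies below every normal brain array.

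The other 5 class 3 genes did not pass the signal filter, and each was at or under background on some arrays. Sema3e, which unlike its relatives binds Plxnd1 without a neuropilin, was at or under background on all 3 normal brain arrays (2.87, 3.54 and 3.76). The GL261 arrays gave 5.83, 6.63, 4.87 and 4.10, above background on 3 of them. The groups did not overlap, but GL261 replicate 4 was under its background of 4.60, so this separation rests in part on values under background. By the group means Sema3e was at least 1.72-fold higher in GL261 against the background. This bound leaves out the spread between arrays and has no test. Of its 4 probe sets, a second also showed no overlap (means of 3.36 and 5.18), again with GL261 replicate 4 under background. The others overlapped between groups. Sema3f was likewise at background throughout normal brain and above it on 2 GL261 arrays. Sema3d was above background on 1 normal brain and 3 GL261 arrays, with group means of 3.52 ± 1.16 (SD, n = 3) and 5.28 ± 1.30 (SD, n = 4) that overlapped. Sema3a, a ligand of Nrp1 known for repelling axons, was above background on 1 normal brain and 3 GL261 arrays at means of 4.45 ± 0.52 (SD, n = 3) and 4.52 ± 0.40 (SD, n = 4). Sema3b was above background on 2 and 4 arrays, with means of 4.71 ± 0.18 (SD, n = 3) and 4.83 ± 0.57 (SD, n = 4).

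Class 4 ligands: Sema4b rose and Sema4c fell, each by more than the spread between arrays. Sema4b, a membrane-spanning semaphorin, was 9.89, 10.47 and 10.56 on the normal brain arrays. It reached 11.58, 11.67, 12.02 and 12.06 with GL261, so every GL261 array exceeded every normal brain array. It rose by 1.53 (SE 0.20, adjusted p = 0.00123), or 2.88-fold. The call held in each of the 7 fits without 1 array (1.32 to 1.65). It was lost when both Sema4b probe sets were averaged (1.01, adjusted p = 0.0581), the other being under the signal filter with a difference of 0.49.

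Sema4c, a ligand of Plxnb2, went the other way. It was 11.08, 11.33 and 10.95 on the normal brain arrays against 10.10, 9.49, 9.45 and 9.76 on those of GL261, with no overlap. It fell by 1.42 (SE 0.21, adjusted p = 0.00218), which was 2.68-fold. Its only probe set was called in all 20 alternative fits, where the difference ran from -1.55 to -1.32.

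The remaining class 4 genes were not called. Sema4d, a ligand of B-type plexins and of Cd72 on leukocytes, averaged 13.13 ± 0.21 (SD, n = 3) in normal brain against 12.85 ± 0.17 (SD, n = 4) for GL261, a difference of -0.28 with a 95% interval of -0.61 to 0.06 (limma adjusted p = 0.283). Sema4a, a costimulatory semaphorin of dendritic cells, had 10.92 ± 0.10 (SD, n = 3) and 10.68 ± 0.10 (SD, n = 4), a difference of -0.24 (-0.57 to 0.10, limma adjusted p = 0.356). Sema4f was 5.79 to 7.55 in normal brain and 4.83 to 7.23 in GL261 and was not called (limma adjusted p = 0.424). Sema4g was under the filter and above background on 2 arrays of each group.

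Sema7a, the class 7 member, was 10.30, 10.28 and 9.80 on the normal brain arrays. GL261 gave 8.40, 9.39, 9.06 and 9.17, below every normal brain array and lowest in replicate 1. It fell by 1.12 (SE 0.28, adjusted p = 0.0282, 2.17-fold), and its dimmer probe set was at -0.74 and was not called (adjusted p = 0.432). Leaving out single arrays ended the call in 5 of 7 cases, namely normal brain replicates 1 and 2 and GL261 replicates 1, 3 and 4. The adjusted p then reached 0.0755 (normal brain replicate 1 left out), and the difference stayed between -1.28 and -0.92. The call was also lost with the mean of both probe sets (-0.93, adjusted p = 0.0810), a variance without trend (adjusted p = 0.0713), the replicate number as a block (adjusted p = 0.0588), and normal brain replicate 1 and GL261 replicate 2 both left out (adjusted p = 0.0789). Its known receptors Plxnc1 and Itgb1 were not called, with differences of 0.09 (adjusted p = 0.797) and 0.53 (adjusted p = 0.0817).

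Classes 5 and 6 gave 0 calls by limma among 5 tested genes (0 at an unadjusted p under 0.05). Sema5b was lower without overlap, at 5.73, 5.54 and 5.20 in normal brain and 4.93, 4.77, 5.17 and 4.68 in GL261. These dim values gave an interval of -1.63 to 0.42, and it was not called (adjusted p = 0.454). Sema5a was above background on 1 array of each group. Sema6d, a ligand of Plxna1 in immune and bone cells, was 9.35, 9.59 and 10.14 on the normal brain arrays. GL261 gave 9.34, 7.39, 9.02 and 9.93, with replicate 2 far below the rest. Its difference was -0.78 (-1.86 to 0.30, adjusted p = 0.350) and -0.26 without GL261 replicate 2. Sema6b was 8.09 to 8.32 in normal brain and 8.16 to 9.06 in GL261, with a difference of 0.27 (adjusted p = 0.674). Sema6a and Sema6c were above background on 6 of the 7 arrays each, with differences of -0.19 and -0.23 (adjusted p = 0.843 for both).

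Receptors: by the probe sets used for them, the neuropilins moved in opposite directions. Nrp1, a receptor for class 3 semaphorins and for vascular endothelial growth factor, was 13.07, 13.12 and 13.26 on the normal brain arrays. With GL261 it was 12.26, 12.38, 12.20 and 12.44. The arrays of each group lay close together, and every GL261 array was below every normal brain array. Nrp1 fell by 0.83 (SE 0.13, adjusted p = 0.00371), or 1.78-fold. All 4 Nrp1 probe sets were called lower when each was tested by itself, from -0.82 to -2.54. With each array centred on its median the difference was -0.84 but no longer called (adjusted p = 0.0669).

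Nrp2, the receptor with preference for Sema3f and for lymphatic growth factors, was 9.25, 9.39 and 9.75 on the normal brain arrays. It was 10.31, 10.12, 10.20 and 10.73 with GL261, all above the normal brain arrays. It rose by 0.88 (SE 0.22, adjusted p = 0.0297), or 1.83-fold. This call rests on 1 of 4 probe sets: the others had differences of 1.08, -0.24 and -0.41, none of them called, and the mean of all 4 gave 0.33 (adjusted p = 0.532). Leaving out normal brain replicate 1 or 2, or GL261 replicate 1, 3 or 4, also ended the call (adjusted p of at most 0.0873, for GL261 replicate 4), as did median centring of the arrays (0.86, adjusted p = 0.0964). The replicate number as a block (0.75, adjusted p = 0.104), a variance without trend (adjusted p = 0.0756), and leaving out normal brain replicate 1 together with GL261 replicate 2 (adjusted p = 0.0863) ended it too.

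Differences taken within an array depend little on how the arrays were scaled. Nrp2 minus Nrp1 was -3.69 ± 0.16 (SD, n = 3) in normal brain against -1.98 ± 0.23 (SD, n = 4) for GL261, a shift of 1.70. This shift holds for the Nrp2 probe set used, since the others had differences between groups of 1.08, -0.24 and -0.41. Sema4b minus Sema4c was -0.82 ± 0.40 (SD, n = 3) and 2.13 ± 0.46 (SD, n = 4), a shift of 2.95. Neither pair overlapped between groups. Both pairs were picked after their values were seen, so the shifts are descriptions without a test, and the level of a difference carries no meaning because probe sets differ in brightness.

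**Figure D3:**
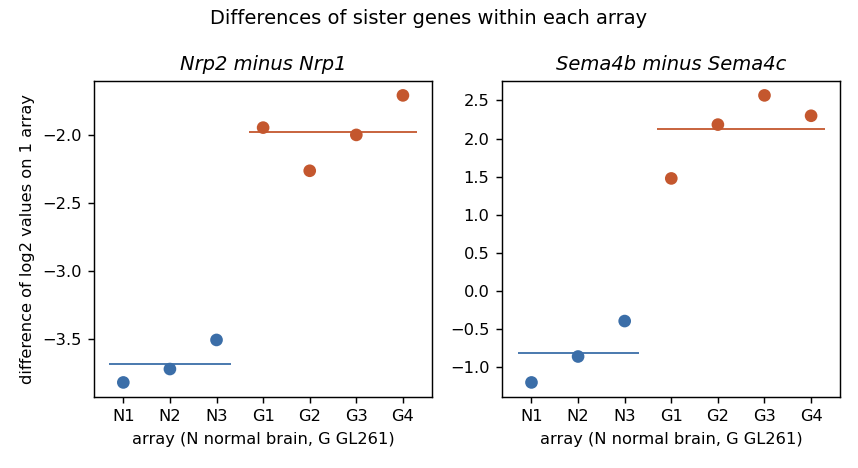
Log2 value of Nrp2 minus that of Nrp1, and of Sema4b minus that of Sema4c, on each array (N1 to N3 normal brain, G1 to G4 GL261), with group means as lines. Each gene is shown by the probe set used for it. The shift between groups is 1.70 in the first panel and 2.95 in the second, and the vertical axes do not start at 0.

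Receptors of the plexin family gave no call. Plxna1, a co-receptor of neuropilins and the receptor of Sema6d, was 8.42, 8.40 and 8.06 on the normal brain arrays. It was 9.58, 8.52, 9.18 and 9.82 with GL261, all higher, though replicate 2 was only just above normal brain. Its difference was 0.98 (0.22 to 1.75, SE 0.35, adjusted p = 0.0979), and 1.23 without GL261 replicate 2, where it was called (adjusted p = 0.0445). In 19 of the 20 alternative fits Plxna1 was not called. It was at 0.80 without GL261 replicate 4 (adjusted p = 0.236) and at 0.52 with the mean of its probe sets (adjusted p = 0.501). Its other probe set, under the signal filter, had a difference of 0.06. Plxnb2, Plxnc1 and Plxnd1, above background on all 7 arrays, had intervals that reach both sides of 0. Plxnb2, the receptor of Sema4c, was at -0.37 (-0.80 to 0.06, adjusted p = 0.260). Plxnc1, the receptor of Sema7a, was at 0.09 (-0.30 to 0.48, adjusted p = 0.797), and Plxnd1, the receptor of Sema3e, at -0.13 (-0.79 to 0.52, adjusted p = 0.821). The 6 Plxnc1 probe sets had differences from -0.51 to 1.33, none of them called. A missed threshold does not show that a receptor was unchanged. The intervals give the range of differences that these arrays allow for the probe set used.

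The remaining plexins varied widely between arrays. Plxnb3 was 4.25 to 7.10 in normal brain and 5.89 to 8.28 in GL261 (difference 1.15, -0.57 to 2.87, adjusted p = 0.387). Plxna2 and Plxna3 were above background on 2 normal brain and 3 GL261 arrays each, and Plxna4 on all 7, with intervals wider than 2 log2 units. Plxnb1, the high-affinity receptor of Sema4d, did not pass the filter and was above background on 1 normal brain and 3 GL261 arrays.

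**Figure D4:**
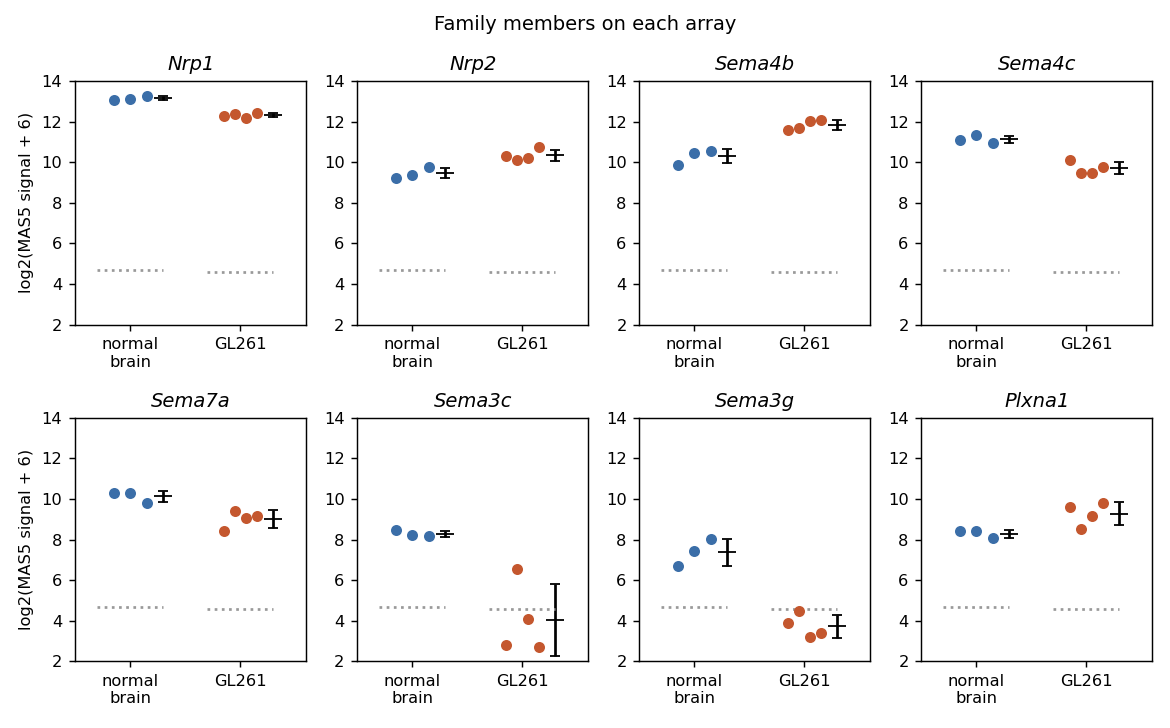
Log2(MAS5 signal + 6) of the 7 called members and of Plxna1 on each array, with the mean and SD of each group beside the points. The dotted lines give the highest background among the arrays of a group. Only Sema3c and Sema3g have points below it, all in GL261, where replicate 2 of Sema3g lies above the background of its own array.

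Several called genes had probe sets that gave different answers. All 4 Nrp1 probe sets were lower, whereas the Nrp2 probe sets split in direction, and Sema3c, Sema4b and Sema7a each had a dimmer probe set with a smaller difference of the same sign. Sema3g and Sema4c had 1 probe set each.

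**Figure D5:**
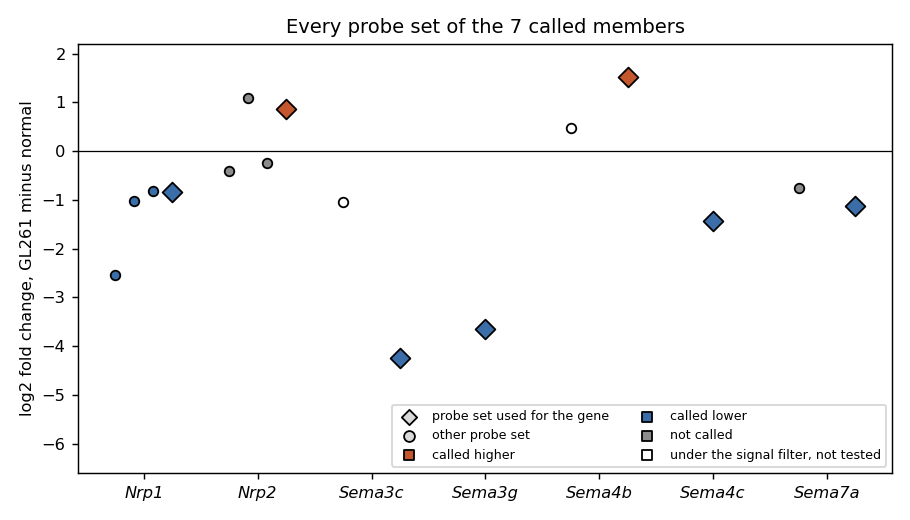
Log2 fold change of GL261 over normal brain for every probe set of the 7 called members, diamonds marking the probe set used for the gene. The 4 Nrp1 probe sets run from -2.54 to -0.82, and those of Nrp2 from -0.41 to 1.08.

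Signalling partners were taken from 4 lists of co-receptors and other receptors, shared ligands and intracellular effectors. The lists held 63 symbols, of which 58 were on the arrays with 1 symbol and 51 were tested. Whether each listed gene acts with the family in these cells was not tested. By limma 6 were called higher and 0 lower (6 lower at an unadjusted p under 0.05), against 5.92% and 4.20% of all tested genes, and the median difference was 0.05. Among 12 tested co-receptors and other receptors 3 rose. Havcr2, a checkpoint receptor of T cells and myeloid cells, rose by 0.95 (adjusted p = 0.0191) and was 10.33 to 11.37 in normal brain and 11.74 to 12.06 in GL261. Cd72, the leukocyte receptor of Sema4d, rose by 0.62 (adjusted p = 0.0455). The neural adhesion molecule Chl1 was above background on 1 of 3 normal brain arrays and on all 4 of GL261, and its groups overlapped. It averaged 4.60 in normal brain, under the filter, and was tested only through its GL261 values. Its fitted difference was 3.34 (adjusted p = 0.0418). With values under background raised to it, Chl1 rose by 2.56 (adjusted p = 0.0458), and with the median pseudocount it had a difference of 1.81 and was not called (adjusted p = 0.0507). Of the 5 vascular endothelial growth factor ligands only placental growth factor (Pgf) was called, at 1.99 higher (adjusted p = 0.0494), while Vegfa had a difference of 0.52 (adjusted p = 0.252).

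Of the 20 tested GTPases, exchange factors and their partners 0 were called by limma (2 higher and 4 lower at an unadjusted p under 0.05). Rac1 and Rap1a, small GTPases that act with plexins, had differences of 0.16 (-0.16 to 0.49) and 0.13 (-0.16 to 0.42). Of 14 tested effectors of the MICAL and collapsin-response type, 2 were called. Fyn, a kinase that phosphorylates A-type plexins, rose by 0.67 (adjusted p = 0.0407), and Mical2, an actin-oxidising enzyme, rose by 1.93 (adjusted p = 0.0498). With single arrays left out, Havcr2 was not called in 1 of 7 cases (GL261 replicate 1, adjusted p = 0.0552). Fyn and Chl1 were not called in 5 of 7, nor were Cd72, Pgf and Mical2 in 6 of 7. Each of these 5 was lost when replicate 2 of normal brain was left out, and also when replicate 1 or 3 of GL261 was, and 0 partners were called by limma without GL261 replicate 1 (14 at an unadjusted p under 0.05). Trem2 and Tyrobp, which associate with Plxna1 in myeloid cells, were at -0.42 (adjusted p = 0.0746) and -0.27 (adjusted p = 0.444).

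Markers of several other cell types differed between the groups beside these genes. Over all tested genes 5.92% were called higher and 4.20% lower. Some dim markers passed the filter only through the group where they were higher. Homeostatic microglia genes were called lower for 5 of 6 tested and border-associated macrophage genes for 6 of 7, with summed signals of 23961 to 28130 and 25894 to 27537 in normal brain and 12210 to 16488 and 14690 to 16474 in GL261. B cell (4 of 4), neutrophil (6 of 6), erythroid (2 of 2) and choroid plexus or pituitary genes (2 of 3) were lower. Oligodendrocyte precursor and glioma-type genes were higher for 5 of 7 (summed signal 128 to 515 in normal brain and 1088 to 1742 in GL261), with 3 of 9 at or under background on all normal brain arrays. Pericyte and fibroblast genes were higher for 3 of 9 and T and NK cell genes for 2 of 7. Monocyte genes gave 1 higher and 1 lower of 3, mature oligodendrocyte genes 1 lower of 4, neuron genes 1 higher of 5 and astrocyte genes 0 of 6 by limma (0 at an unadjusted p under 0.05). A count of 1 in so short a list does not show that markers of that cell type differed. Which of these cells carried the semaphorin, plexin and neuropilin RNA was not determined, and the part of any of them in the results above was not tested.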

How the data were processed

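Gene expression was measured in 7 samples on Affymetrix mouse arrays. The authors deposited 1 linear MAS5 signal intensity per probe set and array, and MAS5 is named in the submitters' processing notes, its version and detection calls not given in the sources used here. Of 45101 probe sets, 34945 had 1 symbol. Gene IDs and symbols of all 31 members matched RefSeq (GRCm38.p6), which also supplied promoter sequences.

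Log2(signal + 6) was analysed, 6 being the 20th percentile of all values. This pseudocount shrinks fold changes of dim genes. Genes with a mean over 4.93, the 40th percentile of probe set means, were tested. Groups were compared in R 4.3.3 with limma 3.58.1 (variance trend, two-sided, Benjamini-Hochberg over 12125 genes), and every adjusted p is from limma. The number of arrays limits the precision. The procedure was tested in 5 runs on simulated data, with fewer changed genes than were called here. It recovered 35% of log2 changes of 1 and 72.6% of changes of 2, and 6.27% of its calls were false. Many real changes of such size can thus be missed. Python 3.11.15 and matplotlib 3.10.9 made the figures.

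All members were accounted for, with values by array where a member was called or its groups did not overlap. Called partners were to be named up to 4 in a direction, by smallest p, and the first 3 markers of a list that moves with a member. Sema6d by array, Pgf, Mical2 and the partners that were not called were named beyond this rule, after their values were seen. Of the marker lists that were lower in GL261, only the endothelial one had markers named. Members and lists (4 of partners, 15 of cell markers) were chosen with earlier results of these data known.

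Alternatives were pseudocounts of 1 and 58, no filter on low signal, a filter at the 60th percentile, median centring, quantile normalization, a replicate block, no variance trend, array weights, each probe set by itself or their mean, and leaving out arrays singly or as a pair. A fit with values under background raised to it was added after seeing the data. It narrows the spread of such values, so its p-values are no separate support.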

Additional observations from a re-analysis of the deposited data

Results flagged for a closer look

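Within the 4 GL261 arrays, 1 array stood apart from the others for 5 of 50 measures examined (31 members and 19 lists), where chance gives about 1 in 20. Sema3b was 5.69 in GL261 replicate 2 and 4.48 to 4.63 in the others. Sema6b was 9.06 in GL261 replicate 4 and 8.16 to 8.31 in the others. The summed signal of endothelial genes was 2557 in GL261 replicate 2 and 861 to 980 in the others. The summed signal of erythroid genes was 4439 in GL261 replicate 2 and 68.0 to 194 in the others. The summed signal of choroid plexus and pituitary genes was 188 in GL261 replicate 2 and 132 to 140 in the others.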

How the results depend on the processing

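Over the whole array 1227 genes were called, 809 with median centring, 455 with a variance without trend and 539 (without GL261 replicate 3) to 1182 without 1 array. GL261 replicates 1 and 4 gave 706 and 727 when left out. The 7 called members numbered 4 with the mean of all probe sets (0 higher and 4 lower of 17 tested) and 4 to 8 without 1 array. The 6 called partners numbered 1 without a filter, with array weights or with every probe set by itself, 3 with median centring or the mean of all probe sets, 0 with a variance without trend (13 at an unadjusted p under 0.05) and 0 to 6 without 1 array.

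The differences that changed sign were those of members not called. Plxna3 was 0.12 with a pseudocount of 1, 0.19 with the replicate block and -0.95 to 0.71 without 1 array. Without 1 array Plxna2 ran from -0.13 to 1.19, Plxnc1 from -0.0821 to 0.19, Plxnd1 from -0.38 to 0.00920 and Sema6c from -0.48 to 0.12. Over the 20 alternatives, 402 of 433 member values and 49 of 116 partner values kept their direction and their side of the threshold. A gene under the filter in an alternative gave no value there. The member values cover all 23 tested members, 16 of them not called, but the partner values only the 6 called. The shares therefore cannot be compared. Of the called members Nrp2 lost its call in 10 alternatives, Sema7a in 9, and Nrp1 and Sema4b in 1 each. Sema4c kept its call in all 20. Sema3c and Sema3g kept theirs in the 19 and 17 alternatives where they were tested. The cause of the changes was not tested.

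Whether the replicate numbers pair the samples is not stated in the labels and could not be settled with so few arrays. Deviations of same-numbered arrays correlated at 0.0792, -0.00754 and 0.0310. Normal brain replicate 1 correlated best with its own number, and replicates 2 and 3 did not. With the replicate block, 1004 genes were called, 501 higher and 503 lower, against 718 and 509 without it. The block gave 1 member higher and 4 lower, Nrp2 and Sema7a losing their calls, and 3 partners higher and 3 lower in place of 6 and 0, Fyn, Mical2 and Pgf losing theirs. GL261 replicate 4 had no partner. Signals near background limit what can be said of the 8 untested members.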
